A study of Mus musculus with 8 samples.

Results

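The genes of the axoneme and the sperm flagellum were examined in ATAC-seq peak lists of mouse pachytene spermatocytes with and without the chromatin remodeler subunit ARID1A. They were the protein-coding genes whose GENCODE symbol starts with *Dnah*, *Dnai*, *Dnaaf*, *Rsph* or *Cfap* followed by a digit. There were 58 such genes among 21938 protein-coding genes. They comprised 15 *Dnah* genes, 4 *Dnaaf* genes, 8 *Rsph* genes and 31 *Cfap* genes. The annotation used here held 0 symbols of the *Dnai* form, because it names the outer arm intermediate chains *Dnaic1* and *Dnaic2*.

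ATAC-seq uses a transposase that cuts open DNA and inserts sequencing adapters, so that accessible sites appear as peaks. The *Arid1a* cKO males were *Arid1a* fl/fl with a single copy of the *Stra8-Cre* transgene, and the *Arid1a* WT males were *Arid1a* fl/fl or *Arid1a* fl/+ without Cre. The floxed line was on a CD1 background, and *Stra8-Cre* acts in spermatogonia, before meiosis. Spermatocytes were sedimented from pooled testes of adult males, and the deletion was incomplete, so the cKO cells included escapers that still had ARID1A. Each genotype had 4 libraries, but the authors merged them into 1 peak list per genotype. No value below therefore has a spread between replicates, and no test of a difference was possible.

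The WT list held 19309 peaks and the cKO list 30244. A gene had a promoter peak when a peak touched any annotated transcription start or the 1000 bp before or 100 bp after it. A peak that overlapped the gene but none of its promoters was intragenic. Peaks were called gained when they were in the cKO list and shared no base with a WT peak, and lost in the opposite case. Peak strength is the fold enrichment of fragments at the summit over the background of the library. It was ranked within a list as a percentile among the strongest promoter peaks of all genes, because the libraries behind the lists differed in depth. All 10 markers of pachytene spermatocytes that were examined had a promoter peak in both lists. Among 8 spermatogonial markers 0 had a promoter peak in both lists and 3 had one in the cKO list only, at folds of 2.95 to 3.27. Of 8 spermatid markers 3 had one in both lists and 2 in the cKO list only. Of 8 Sertoli cell markers 1 had one in both lists, 3 in the cKO list only and 1 in the WT list only. A promoter peak in both lists was found at 1 of 6 Leydig cell markers and at 3 of 6 markers of multiciliated epithelium, and 1 of 4 macrophage markers had one in the cKO list only. The part of other cells in the results below was not tested, and a change in the share of open cells cannot be told apart here from a change in accessibility per cell.

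The axoneme is the microtubule core of cilia and flagella. Outer and inner dynein arms, built around the heavy chains of the *Dnah* genes, slide neighbouring microtubule doublets past each other. Radial spokes and the central pair pass on the signals that set the beat, and dynein arms are assembled in the cytoplasm by dedicated factors, among them those of the *Dnaaf* genes. The sperm tail is built after meiosis, yet many of its genes are transcribed from pachynema on, under transcription factors that include A-MYB and RFX2. Sperm and multiciliated epithelia use different outer arm heavy chains. DNAH8 and DNAH17 serve the sperm tail, and DNAH5, DNAH9 and DNAH11 serve motile cilia.

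Sequences from the genes where this contrast was clearest are given first, in mm10 (GRCm38) and read 5′ to 3′ along the gene. For *Dnah8* a coding transcript starts at chr17:30626935, next to the start of the divergent *Glo1* gene. The 63 bases between both starts were covered by a peak in both lists, with the WT summit and the cKO summit inside them. For the other 4 outer arm heavy chains the 150 bases upstream of the annotated gene end are shown. All 150 were covered by peaks in both lists at *Dnah17*, and 0 of 150 were covered in either list at *Dnah5*, *Dnah9* and *Dnah11*. At *Dnah9* and *Dnah11* a weak cKO peak lay just downstream of the bases shown. Capitals mark CpG dinucleotides.
Dnah8 (chr17:30626872-30626934, plus strand): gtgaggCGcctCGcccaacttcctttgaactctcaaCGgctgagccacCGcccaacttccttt
Dnah17 (chr11:118130635-118130784, minus strand): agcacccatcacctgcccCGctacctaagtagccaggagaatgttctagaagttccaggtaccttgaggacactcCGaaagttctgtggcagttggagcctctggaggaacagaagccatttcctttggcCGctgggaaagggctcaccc
Dnah5 (chr15:28203602-28203751, plus strand): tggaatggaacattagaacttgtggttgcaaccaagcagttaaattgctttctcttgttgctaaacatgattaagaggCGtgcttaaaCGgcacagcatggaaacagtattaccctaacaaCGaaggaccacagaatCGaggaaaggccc
Dnah9 (chr11:66168552-66168701, minus strand): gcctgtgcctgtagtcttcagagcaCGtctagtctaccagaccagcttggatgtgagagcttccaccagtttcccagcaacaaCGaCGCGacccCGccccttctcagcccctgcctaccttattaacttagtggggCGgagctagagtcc
Dnah11 (chr12:118199044-118199193, minus strand): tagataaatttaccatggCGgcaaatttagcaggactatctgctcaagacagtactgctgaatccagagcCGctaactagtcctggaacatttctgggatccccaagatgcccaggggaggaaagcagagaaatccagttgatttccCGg

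The RFX family binds the X-box, which was searched as GTNNCC followed by GGNNAC with 0 to 3 bases between them on both strands. It was found within 150 bp of the summit of the strongest promoter peak in 7 of 53 axonemal genes (13.2%, exact binomial 95% interval 5.48 to 25.3) in the cKO list. The share was 6.01% over the 12373 protein-coding genes with a summit in that list. In the WT list, where the summit could be placed for 45 of the 46 genes with a promoter peak, it was 7 of 45 (15.6%, interval 6.49 to 29.5), against 5.92% of all genes. The lists shared 6 of these genes, while *Cfap126* counted in the cKO list only and *Dnaaf1* in the WT list only. The intervals cover counting error only. The sites are shown because all 7 genes had theirs 11 to 45 bp from an annotated start of their own, with a median of 16 bp. At *Cfap43* and *Cfap126* that start was an internal one, kilobases from the 5′ end of the gene. Among all genes with an X-box by a summit, 300 of 744 (40.3%) had it within 50 bp of a start. Capitals mark the X-box from its first to its last letter. *Cfap126* held another site, which is not shown.
Cfap126 (chr1:171123125-171123153, plus strand): cttctgcaGTTGCCAGGCAACaagtgtaa
Cfap206 (chr4:34730208-34730237, minus strand): cgcgttccGTTTCCACGGTTACgcgactgc
Cfap298 (chr16:90934897-90934925, minus strand): tttgactGTTGCCCCTGGCAACagccact
Cfap43 (chr19:47837413-47837441, minus strand): ggttcccgGTCTCCAGGATACaggtgtaa
Cfap58 (chr19:47937645-47937673, plus strand): gcgtggcgGTTGCCAGGCGACcgaagacg
Cfap65 (chr1:74935615-74935643, minus strand): tgccgtcGTTGCCATGGGATACcaaaaga
Rsph9 (chr17:46144185-46144214, minus strand): ggctcaggGTCTCCATGGAGACagcttcta

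A-MYB, the master activator of pachytene transcription, was searched by its core AACTGCC on both strands. The core was present by the summit in 7 of 53 axonemal genes in the cKO list (13.2%, interval 5.48 to 25.3), compared with 3.92% of all genes. In the WT list it was present in 5 of 45 genes (11.1%, interval 3.71 to 24.1), compared with 3.81% of all genes. Both genes that had the core in the cKO list only, *Dnah12* and *Cfap73*, had no WT promoter peak to search. Of the 7 genes, 4 had the core within 50 bp of a start of their own, and 178 of the 485 genes with a core in all (36.7%) did. Capitals mark the core on either strand. *Cfap97d2* held a further copy. The CRE, the site of CREM and CREB, was searched as TGACGTCA and occurred in 1 axonemal gene, *Dnah6* (1.89%, interval 0.0478 to 10.1), against 3.43% of all genes. A match is a description of the letters and not evidence of a bound factor.
Cfap161 (chr7:83794878-83794906, minus strand): tggcaactggcAACTGCCtggtcgtcatg
Cfap20 (chr8:95434758-95434786, minus strand): gcggcgcgggcGGCAGTTgctgtggtttc
Cfap73 (chr5:120634066-120634094, minus strand): ccgttcctttgGGCAGTTtgggtgcaaga
Cfap97d2 (chr8:13708194-13708222, plus strand): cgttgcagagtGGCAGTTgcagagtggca
Dnah12 (chr14:26693256-26693284, plus strand): ccactcatctcAACTGCCattctttaact
Dnah17 (chr11:118130680-118130708, minus strand): gaaagttctgtGGCAGTTggagcctctgg
Rsph3a (chr17:7945940-7945968, plus strand): cagctggccggAACTGCCtggagttcctg

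Promoters of axonemal genes were mostly open in both genotypes. In the WT list 46 of 58 had a promoter peak (79.3%), where 49.7% of all protein-coding genes did. In the cKO list 53 of 58 had one (91.4%), where 56.7% of all genes did. All 46 genes with a WT promoter peak also had a cKO promoter peak. A promoter peak in the cKO list only was found at 7 genes (12.1%, against 7.31% of all genes), and a promoter peak in the WT list only at 0 genes (against 0.269%). The remaining 5 genes, *Dnah3*, *Dnah5*, *Rsph3b*, *Rsph4a* and *Cfap300*, had no peak in the promoter or the gene body in either list. These counts include peaks at annotated starts inside a gene, as at *Cfap43*, *Cfap126* and *Dnah2*. With the 5′ end of each gene as its only start, 44 genes had a WT promoter peak and 50 a cKO promoter peak. In that setting 6 genes had one in the cKO list only. The comparison with all genes includes many genes of other tissues, so the share of open promoters says nothing particular about the axoneme.

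**Figure D1:**
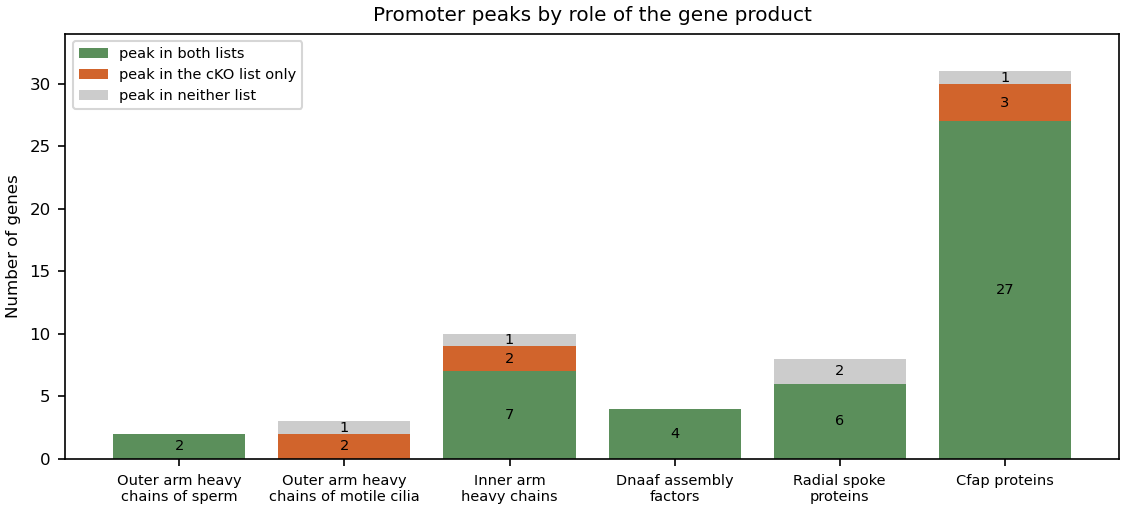
Number of axonemal genes (vertical axis) with a promoter peak in both lists, in the cKO list only or in neither list, by role of the gene product (horizontal axis). Both sperm outer arm chains had a peak in both lists and none of the 3 outer arm chains of motile cilia did.

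The peaks at open axonemal promoters spanned most of the range of promoter peak strength, with medians below those of all genes. The strongest promoter peak had a median fold of 6.94 in the WT list (range 3.94 to 17.6), and that of all genes was 8.63. In the cKO list the median was 9.65 (range 2.78 to 38.3), and that of all genes was 12.3. Expressed as percentiles within a list, the medians were 35.5 in WT (order-statistic 95% interval 29.0 to 62.9) and 38.1 in cKO (29.2 to 62.0). Both intervals include the middle of the list. They are taken over genes, which are not replicates, so they do not decide whether the set ranks below other genes. Above the 50th percentile lay 18 of 46 genes in WT and 23 of 53 in cKO. Sequence content was measured in the promoter window of the 5′ end of the gene, also where the peak lay at another start. The median GC content was 48.1% and the observed-to-expected CpG ratio 0.436 where both lists had a peak. All genes of that class had 51.4% and 0.576. The ratio was 0.295 for the 7 genes with a cKO promoter peak only and 0.322 for the 5 genes with none, compared with 0.380 and 0.190 for all genes of those classes. The strongest promoter peak was wider in the cKO list at 44 of 46 genes with *Cfap69* and *Rsph10b* as exceptions, and it was wider at 95.3% of all genes with both peaks. Median widths were 1056 bp in WT and 1401 bp in cKO, beside 1068 bp and 1470 bp for all genes. In the lists 43 of 46 of these peaks in WT and 49 of 53 in cKO had at least 3 rows, each row being an overlap with a peak of another library, though rows do not count libraries.

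**Figure D2:**
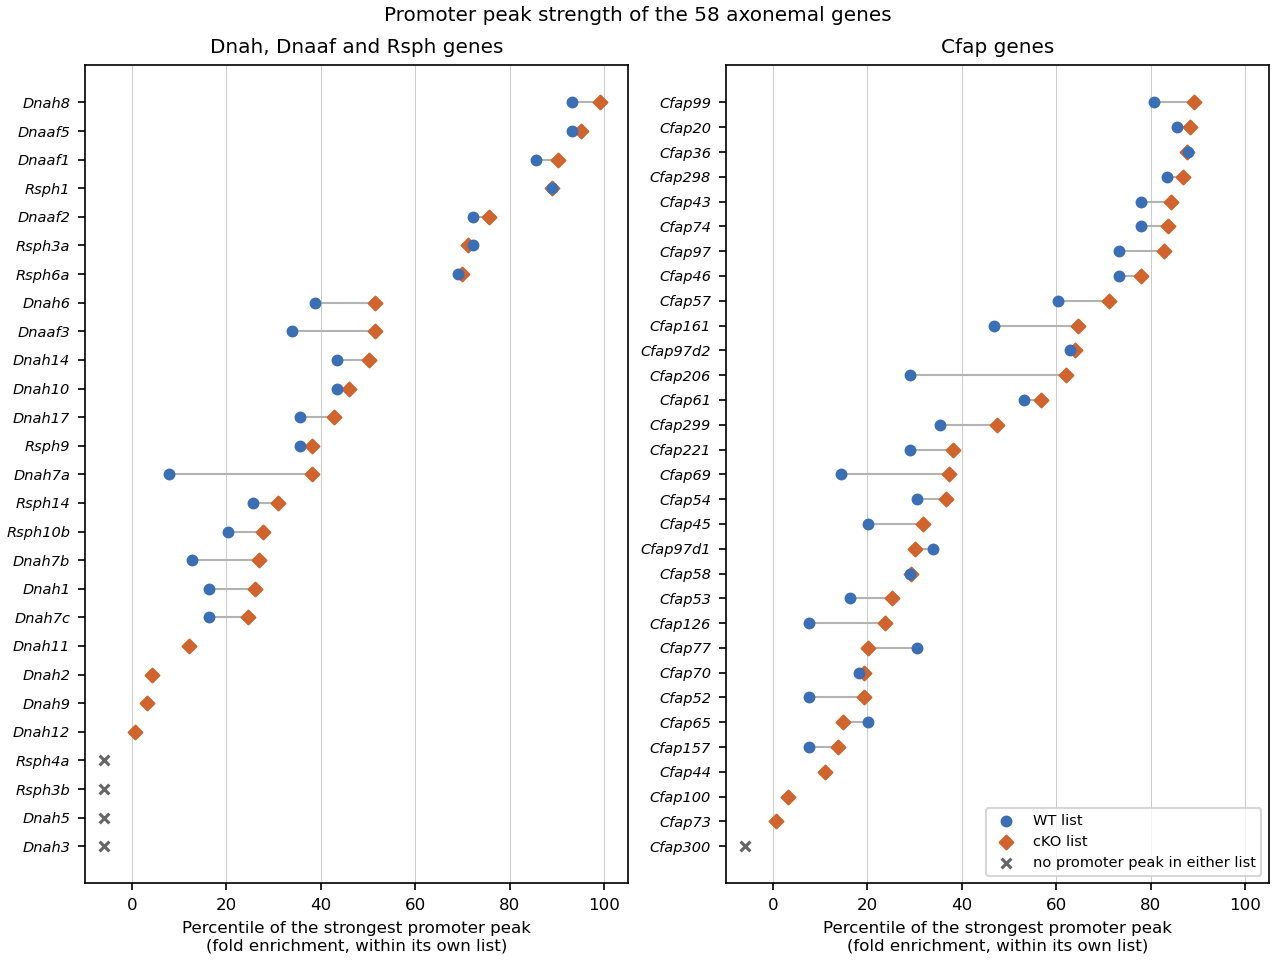
Percentile of the strongest promoter peak of each of the 58 genes among all genes with a promoter peak in the same list (horizontal axis), for the WT list (circles) and the cKO list (diamonds), with crosses at genes without a promoter peak. Assembly factors lie mostly to the right and most heavy chains to the left, and the points of *Dnah8* come from an intronic repeat described in the text.

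The group with the strongest promoters was that of the *Dnaaf* assembly factors, all 4 of which were open in both lists with median percentiles of 78.9 in WT and 82.9 in cKO. *Dnaaf5* had a promoter peak of fold 17.6 in WT and 29.8 in cKO (the 93.1st percentile in WT). The *Dnaaf1* promoter peak had folds of 14.6 and 25.7 and widths of 1588 and 7512 bp. *Dnaaf2* followed at 11.8 and 19.1, and *Dnaaf3* was the weakest of the group at 6.75 and 12.6. The strongest promoter peaks of *Dnaaf5*, *Dnaaf1* and *Dnaaf2* also covered promoters of the coding genes *Prkar1b*, *Hsdl1* and *Gm49383*, so 3 of these 4 peaks cannot be assigned to the axonemal gene alone. The same holds for *Cfap52*, *Cfap57*, *Cfap61*, *Cfap97d1* and *Cfap99*, which makes 8 such genes in all, and for the peak at the *Dnah8* start described below.

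Among the radial spoke genes 6 of 8 had a promoter peak in both lists and 2 in neither. *Rsph1*, which encodes a spoke head protein, stood at fold 15.8 in WT and 24.7 in cKO. The contrast within the spoke head was between a pair of related genes. *Rsph6a*, the form used in sperm, had folds of 11.3 and 17.3, and *Rsph4a*, the form used in motile cilia, had no peak. *Rsph9* had folds of 6.94 and 9.65, *Rsph10b* 5.25 and 7.53, and *Rsph14* 5.82 and 8.18. The spoke stalk gene *Rsph3a* had folds of 11.8 and 17.7, but 43.5% and 48.6% of the sampled sequence in its WT and cKO peak was unique, since the genome holds the near-identical *Rsph3b*. The absence of a peak at *Rsph3b* cannot be separated from the placement of shared reads.

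Of the 31 *Cfap* genes, 27 had a promoter peak in both lists. *Cfap36*, whose product binds the small GTPase ARL3, had folds of 15.4 and 24.1, and *Cfap20*, a protein of the doublet lumen, 14.6 and 24.4. *Cfap298*, which acts in dynein arm assembly, had 14.1 and 23.6, and *Cfap99* 13.5 and 24.9. These 4 lay between percentiles 80.8 and 89.1 of their lists. At the other end, the weakest WT promoter peaks shared a fold of 3.94 and belonged to *Cfap126* and *Cfap52*, both coding for proteins inside the doublets, to *Cfap157* and to the heavy chain gene *Dnah7a*. They shared percentile 7.73 in WT, and in cKO *Cfap126* was at percentile 23.6, *Cfap52* at 19.4, *Cfap157* at 13.9 and *Dnah7a* at 38.1. The genes were picked as the lowest in WT, and the cKO list ranks more promoters, so no shift is read from these values. Of the 46 genes open in both lists, *Cfap206*, a gene chosen for mention after its values were seen, had the largest difference in percentile, with percentiles of 29.0 in WT and 62.0 in cKO, and *Dnah7a* had the next. With 1 list per genotype the spread of such ranks between libraries is unknown.

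The 5 outer arm heavy chains differed in whether their promoters were open. Both outer arm chains of sperm were open in both lists, whereas *Dnah5* had no peak and *Dnah9* and *Dnah11* had a weak promoter peak in the cKO list only. *Dnah17* had a promoter peak of fold 6.94 and 999 bp in WT and of fold 10.6 and 2017 bp in cKO. Of the 10 inner arm heavy chains, 7 were open in both lists, *Dnah2* and *Dnah12* in the cKO list only, and *Dnah3* in neither. Their folds were modest. *Dnah10* and *Dnah14* both had 7.88 in WT, and 11.3 and 12.3 in cKO, while *Dnah6* had 7.32 and 12.6. *Dnah1* had 4.88 and 7.20, *Dnah7b* 4.50 and 7.36, *Dnah7c* 4.88 and 6.87, and *Dnah7a* 3.94 and 9.65. The near-identical *Dnah7* copies could still be told apart, with 89.1% to 100% of the sampled sequence in these peaks unique.

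Gained promoter peaks, 15 in all, occurred at 13 axonemal genes (22.4%, against 9.72% of all genes), with folds of 2.62 to 4.58. The background here includes many genes without any promoter peak. Among genes with a cKO promoter peak it was 13 of 53 axonemal genes and 2133 of 12443 genes in all. Of the 15 peaks, 5 were centred in an exon and 2 in an intron, outside the promoter window. The strongest promoter peaks of the 7 genes open in the cKO list only had folds of 2.78 to 4.58. *Dnah11* had the strongest, of fold 4.58 and 415 bp at chr12:118198618-118199032, on 3 rows. It lay downstream of the bases shown above, over the first exon. *Cfap44*, required for the sperm tail axoneme, followed at 4.42 and 824 bp, and that peak shared bases with a WT peak just inside the gene, so the site itself was open in both lists. *Dnah2* had 3.44 on 1 row at chr11:69544454-69545006, by an annotated start inside the gene and not at its 5′ end. *Dnah9* and *Cfap100* both had 3.27 on 3 rows, at chr11:66167953-66168543 and chr6:90428389-90428679. *Dnah12* (chr14:26693220-26693621) and *Cfap73* (chr5:120634015-120634352) had 2.78 on 2 rows, the lowest fold that the strongest promoter peak of any axonemal gene had. CFAP73 and CFAP100 form a complex that regulates the inner arms. When the cKO list was shortened to its 19309 peaks of highest −log10 q, so that both lists were equally long, 2 of the 7 remained, *Dnah11* and *Cfap44*. That was 3.45% of the axonemal genes, against 3.797% of all genes, which is near the background.

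Peaks covered *Dnah8*, an outer arm heavy chain gene of sperm, over most of its length. The gene lies on the plus strand at chr17:30624354-30877365 and spans 253.0 kb. In the WT list 61 peaks covered 195608 bp of it (77.3%), and in the cKO list 11 peaks covered 248495 bp (98.2%). Among the 2492 protein-coding genes of at least 100 kb this was the highest share in both lists. The next gene reached 30.3% in WT (*Cyp19a1*) and 58.6% in cKO (*Dnah17*), and the median of the long genes was 0.257% and 0.559%. No peak of *Dnah8* was gained or lost, because each cKO peak overlapped WT peaks.

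Over *Dnah8* the cKO list held fewer and wider peaks than the WT list. The median width of the *Dnah8* peaks was 1528 bp in WT and 21069 bp in cKO. The widest WT peak was chr17:30730691-30748104, of 17414 bp and fold 8.25, and it ranked 2 by width in the whole list. The widest cKO peak was chr17:30639816-30702339, of 62524 bp and fold 13.4, which was the widest of its list and overlapped 17 WT peaks. *Dnah8* held 5 of the 31 WT peaks of at least 10000 bp and 9 of the 112 such cKO peaks. Of the WT peaks 53 had at least 3 rows, as did all 11 in cKO, but a wide peak can gather several rows from the same library, and the widest WT peak had 8. Each of the 51 bins of 5 kb along the gene was at least 23.1% covered in WT and at least 80.0% in cKO. Exons and introns did not stand apart, with 81.1% of exonic and 76.9% of intronic bases covered in WT and 97.4% and 98.3% in cKO. Coverage fell outside the gene. In the 100 kb upstream it was 14.2% in WT and 37.4% in cKO, and in the 100 kb downstream 2.84% and 16.2%.

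**Figure D3:**
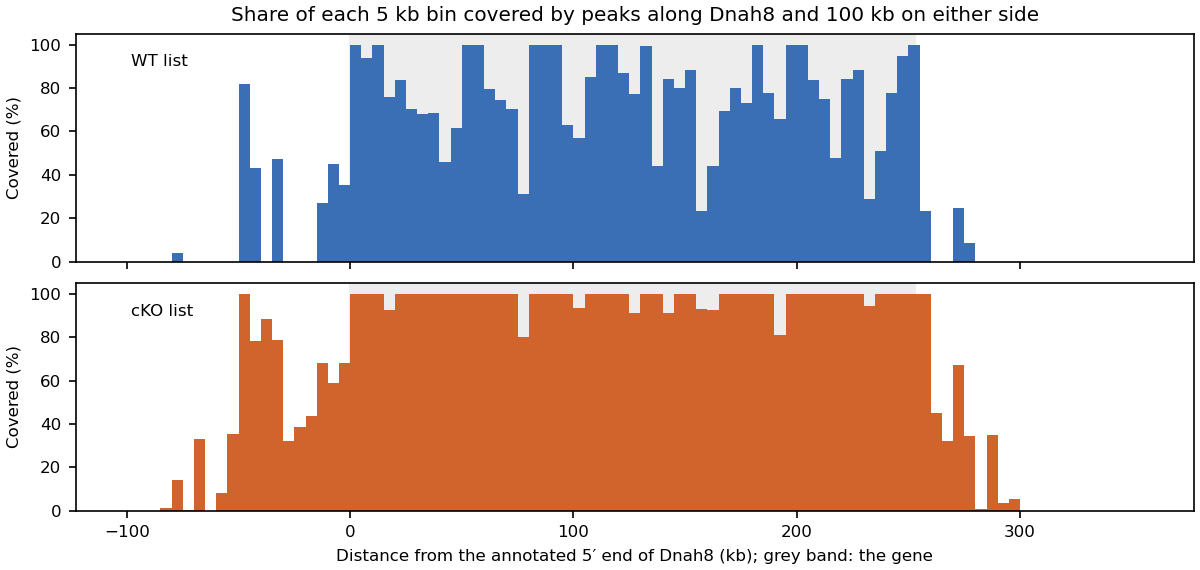
Share of each 5 kb bin covered by peaks (vertical axis, percent) against distance from the annotated 5′ end of *Dnah8* (horizontal axis, kb), for the WT list above and the cKO list below, with the gene as a grey band. Covered bins fill the gene in both lists and thin out on either side, with at least 80.0% of every gene bin covered in cKO.

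The strength of the *Dnah8* promoter has to be read at its start. The peak over chr17:30626935 was chr17:30623081-30630952 in WT, with a fold of 13.1 on 5 rows and its summit at 30626906. In cKO it was chr17:30621415-30639452, with a fold of 24.4 on 3 rows and its summit at 30626911. Taken as the promoter peak of *Dnah8*, these rank at the 78.8th and 88.3rd percentiles, and *Glo1* and the noncoding gene *1700097N02Rik* start in the same peaks. A higher fold, 17.6 in WT and 38.3 in cKO, was recorded in an intron 174.1 kb from the annotated 5′ end of the gene. The peaks there counted as promoter peaks only because they reach the window of an internal annotated start. Both summits, 30798453 and 30798454, lay in a tandem repeat of a 36 bp unit that fills chr17:30797776-30799086, 36.4 copies over 1311 bp, with 96.5% of bases equal to the base 36 bp further on. Of the 3052 bp WT peak, 63.6% of the sampled sequence was unique. The number of copies in CD1 mice was not measured, and its part in this fold was not tested. The bases around the WT summit are shown because they carry the highest cKO fold of any axonemal gene and, with *Dnaaf5*, the highest WT fold. They hold 3 whole units and the start of another, with every other unit in capitals.
Dnah8 (chr17:30798393-30798512, plus strand): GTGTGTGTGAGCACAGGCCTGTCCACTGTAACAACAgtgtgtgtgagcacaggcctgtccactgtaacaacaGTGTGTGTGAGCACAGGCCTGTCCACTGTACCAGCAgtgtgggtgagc

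Broad coverage was seen at a few other axonemal genes. With a limit of 20% of the gene and a length of at least 20 kb, chosen after the values were seen, and without *Dnah8*, whose wide domain was known when the genes were chosen, 3 of 47 axonemal genes were covered in WT (6.38%) where 0.325% of all genes were. In cKO 5 of 47 were (10.6%) where 1.4% of all genes were. These shares are descriptions of limits fitted to the values. *Dnah17*, the partner of *Dnah8* in the sperm outer arm, had 28.6% in WT and 58.6% in cKO, which ranked it 3 in WT and 2 in cKO among the 2492 long genes. With lists of equal length its cKO share was 50.7%, behind *Cyp19a1* with 53.2%. Its widest peak was 4058 bp in WT and 12111 bp in cKO. *Rsph1* had 35.5% and 62.9%. *Dnaaf1* had 50.4% and 94.4%, with a 13343 bp cKO peak that also covers the promoter of the neighbouring *Taf1c*. *Cfap65*, required for the sperm tail, passed the limit in cKO only and had 6.24% in WT, and *Cfap74*, a central pair gene, had 5.93% and 21.8%. *Cfap74* fell below the limit with lists of equal length, at 13.3% in cKO, while *Cfap65* had 21.4%. The widest peak over *Dnah2*, of 9026 bp, lay at the promoter of its neighbour *Kdm6b* and was centred outside the gene.

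**Figure D4:**
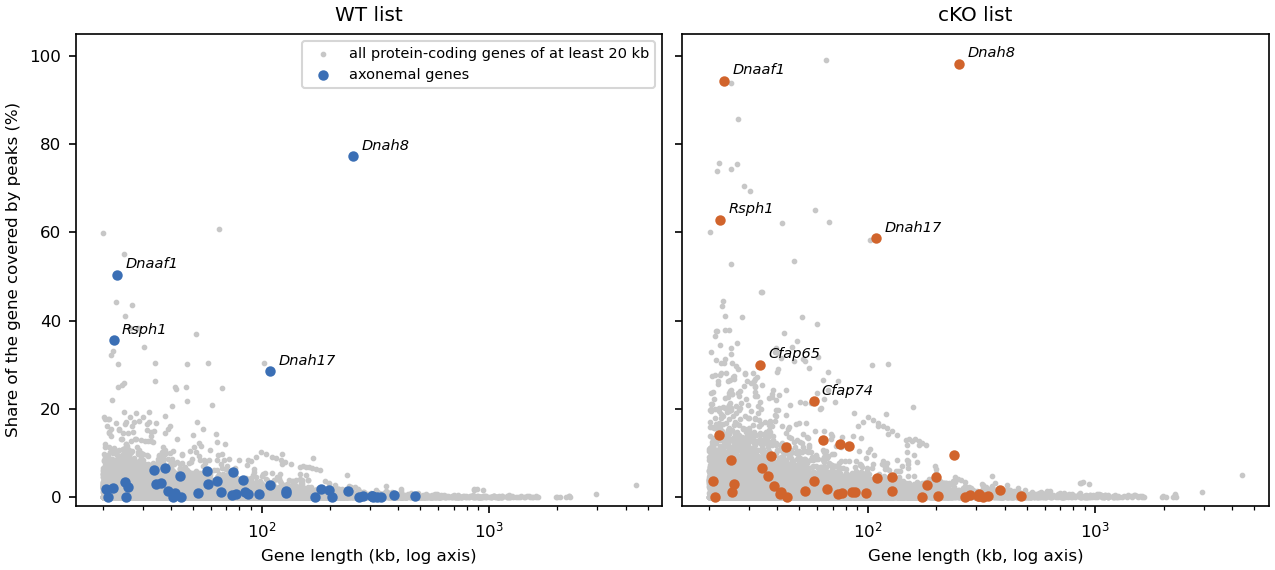
Share of each gene covered by peaks (vertical axis, percent) against gene length (horizontal axis, kb, log scale), for genes of at least 20 kb, with axonemal genes in colour over all protein-coding genes in grey, WT list on the left and cKO list on the right. *Dnah8* lies at 77.3% and 98.2%, above all other genes of its length.

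Axonemal genes are long, with a median of 57.8 kb against 17.4 kb for all genes, and they held many intragenic peaks. In the WT list there were 130 in 25 genes, which is 2.09 per 100 kb of gene, compared with 0.471 for all genes. In the cKO list there were 166 in 34 genes, or 2.66 per 100 kb, compared with 0.906. *Dnah8* alone supplied 48 of the WT peaks, and without it the WT count was 82, or 1.37 per 100 kb.

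Gained intragenic peaks were found in 26 of 58 axonemal genes (44.8%), where 16.8% of all genes had at least 1. Both shares differed by gene length. Under 100 kb, 15 of 39 axonemal genes (38.5%) and 13.8% of all genes had a gained intragenic peak. From 100 kb up it was 11 of 19 axonemal genes (57.9%) and 1001 of 2492 genes in all (40.2%). From 200 kb up it was 5 of 12 axonemal genes (41.7%) and 499 of 998 genes in all. The shares per gene do not allow for the number of intragenic peaks a gene holds. Of genes with any cKO intragenic peak, 26 of 34 axonemal genes and 3690 of 5353 genes in all had a gained one. Counted as peaks, 108 of 166 cKO intragenic peaks of axonemal genes were gained, beside 5744 of 9731 over all genes. The 108 gained intragenic peaks were mostly intronic (95, with 13 in exons), and 31 lay within 5 kb of an annotated start. They were weak, with folds of 2.45 to 5.56 and a median of 3.11, and 475.5 bp wide at the median. Of the 108, 47 were on at least 3 rows and 30 on a single row. Of the 104 whose sequence could be sampled, 103 were unique.

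A pair of heavy chain genes held 40 of the 108 gained intragenic peaks. *Dnah14* had 22 gained intragenic peaks, 21 of them intronic and 7 on at least 3 rows, and it had 6 peaks in WT and 31 in cKO. Only 4 genes in the genome, *Dnah14* included, had that many, and the highest count of any gene was 73. *Dnah17* had 18, of which 15 were intronic and 9 on at least 3 rows, and it had 23 peaks in WT and 29 in cKO. *Cfap46* followed with 9, and *Cfap65* and *Cfap74* with 6 each. *Cfap46* and *Cfap74* both code for proteins of the same central pair projection. The highest fold, 5.56, occurred at chr19:47914006-47914910 in an intron of *Cfap43* and at chr1:181703375-181704074 in an intron of *Dnah14*. An intron of *Dnah17* had 4.75 at chr11:118049003-118049961, and *Cfap44*, *Cfap74* and *Dnah12* each had a peak of 4.58.

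**Figure D5:**
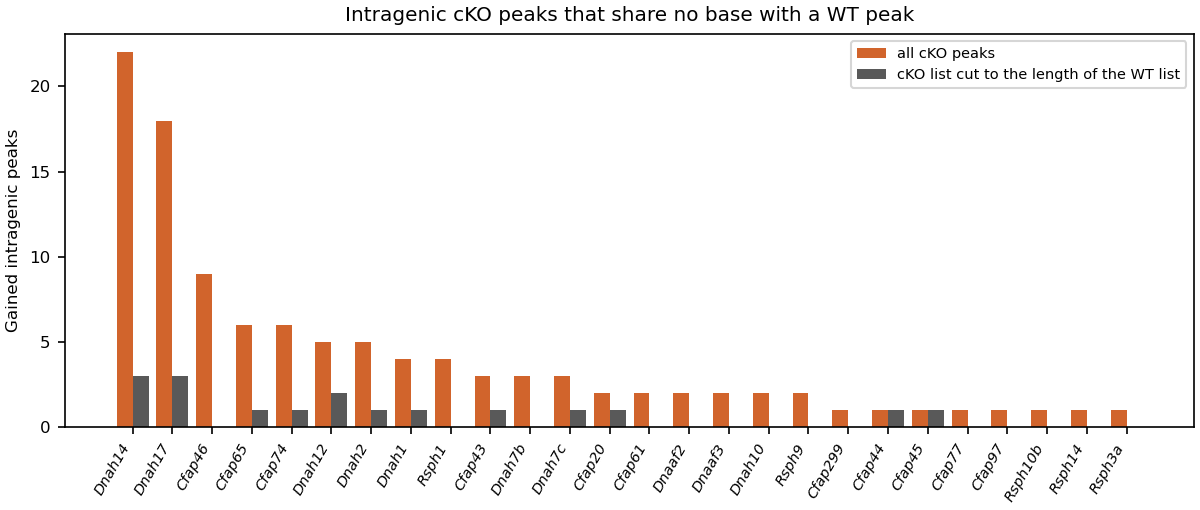
Number of intragenic cKO peaks that share no base with a WT peak (vertical axis) in each axonemal gene that has any (horizontal axis), for the whole cKO list and for the cKO list shortened to 19309 peaks. *Dnah14* and *Dnah17* lead with 22 and 18, and each had 3 in the shortened list.

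Most gained intragenic peaks were among the weaker peaks of the cKO list. Shortening that list kept folds of at least 3.93, and the median gained intragenic peak had 3.11, so the cut had to remove most of them. With both lists at 19309 peaks, 17 gained intragenic peaks remained in 12 axonemal genes (20.7%, against 5.20% of all genes). *Dnah14* and *Dnah17* then had 3 each and *Dnah12* had 2. In the same setting 14 WT intragenic peaks in 12 axonemal genes (20.7%, against 4.33%) had no cKO counterpart, and the cut itself can remove a counterpart. The shares of genes in this setting were split neither by gene length nor by the number of peaks per gene, so no trait of the set is read from them. The coverage of *Dnah8* was again 98.2%.

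Lost peaks were few in number. With the whole lists 7 axonemal genes had 1 each (12.1%, where 2.2% of all genes had at least 1). These shares were not split by gene length, and they do not allow for the number of peaks a gene holds. Counted as peaks, 7 of the 130 WT intragenic peaks of axonemal genes were lost, or 7 of 82 without *Dnah8*. Over all genes it was 407 of 5062, so no excess of lost peaks is read from these values. All 7 lost peaks were intragenic, at folds of 2.63 to 4.13, and 5 of the 7 were on a single row and 0 on 3 or more. The genes were *Cfap43*, *Cfap44*, *Cfap65*, *Cfap70*, *Cfap77*, *Dnaaf2* and *Dnah1*. In *Cfap77* the lost peak had the highest fold, 4.13, but 42.9% of its sampled sequence was unique, and *Cfap70* was also under the 50% that counts as unique. In *Cfap44* the lost WT peak (chr16:44450990-44451323) and a gained cKO peak (chr16:44451366-44451868) lay next to each other, with no base in common. *Cfap65* and *Cfap43* also had gained intragenic peaks, 6 and 3.

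Other genes of the same structures were mostly open too. Of 115 further axonemal and ciliary genes, 95 had a promoter peak in both lists (82.6%, against 49.4% of all genes), 7 in the cKO list only (6.09%, which is near the 7.31% of all genes) and 13 in neither (11.3%, against 43.0%). The intermediate chain genes *Dnaic1* and *Dnaic2* had one in both lists. So did 9 of 10 further dynein arm assembly factors, 11 of 12 further central pair genes, 10 of 12 genes of the nexin-dynein regulatory complex and the ruler that spaces it, 11 of 15 genes of tektins and other proteins inside the doublets, 8 of 11 genes of dynein light chains, docking and attachment, 10 of 13 ciliary transcription factors and 25 of 26 genes of intraflagellar transport, the trafficking system that builds the axoneme. The lowest share was that of the outer dense fibres and fibrous sheath, sperm-specific structures around the axoneme, with 9 of 14 in both lists and 5 in neither. The 7 genes with a cKO promoter peak only were *Armc4* (fold 7.53) and *Nme8* (6.38) of the outer arm, *Drc7* (6.55) and *Ccdc39* (6.87) of the regulatory complex and ruler, *Efhc2* (7.20), *Ttc26* (4.42) and *Myb* (3.11). All but *Ttc26* and *Myb* exceeded the strongest cKO-only promoter peak among the *Dnah*, *Rsph* and *Cfap* genes. *Foxj1*, the regulator of motile cilia, was open in both lists at folds of 18.0 and 26.5.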

How the data were processed

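ATAC-seq libraries (4 per genotype) were grouped by the genotype in the labels. Per the methods and the labels, the authors followed Omni-ATAC, trimmed reads with Trim Galore, aligned them to mm10 with Bowtie2, removed duplicates with Picard and mitochondrial reads with SAMtools, and ran MACS2 on every library with 1 genome-wide background. Reads of low mapping quality were not stated to be removed, and those from repeats may be misplaced. The replicate peaks of a genotype were intersected into 1 list. Each row is a part of a peak, so rows with the same peak name were joined here. A peak therefore has a number of rows, which reflects how many overlaps with other libraries were recorded and is not a replicate count. Fold enrichment as deposited is the ratio of fragments at the summit to library background, both raised by 1. The deposited −log10 q is its significance, and the −log10 p was not used. A deposited score column was not used. Interval and summit columns, recorded under the unit other, are as deposited. The background was 4.33 fragments per base in WT and 5.11 in cKO, and the lowest summit pileup was 13 and 14. That is the only depth known, and the depth of the other libraries is unknown.

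Genes, starts and exons came from GENCODE vM21 (GRCm38), sequences from the matching genome. Overlaps needed at least 1 bp. Summits could not be placed for 985 WT and 1029 cKO peaks, which were not searched for motifs. Uniqueness is the share of 50-mers, taken every 25 bp, that occur once in the genome, and a peak was called unique at 50%. The members, lists and limits were chosen with earlier results of these data known. The named genes are all dynein heavy chains, every member with a promoter peak in 1 list only or with a lost peak, the 4 strongest and 4 weakest promoter peaks of each list, the 5 members with most and the 5 with the strongest gained intragenic peaks, and the 4 with the widest peak, where a 5th is named at a tie. Other members are given as examples of their group. The scripts were tested on simulated data and used Python 3.11.15, numpy 2.4.6, pandas 2.3.3, scipy 1.17.1 and matplotlib 3.10.9. No test was run, since each genotype is 1 list.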

Additional observations from a re-analysis of the deposited data

How the results depend on the processing

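Of 145 values recomputed under 21 settings, 22 moved, that is, counts by more than 1.5 times, ranks and shares beyond their interval, and the *Dnah8* widths by any amount, and 123 did not. The number of axonemal genes with a promoter peak in the WT list only, reported as 0, was 7 when the peak centre had to lie in the promoter, 2 when the summit had to, and 1 with peaks on 3 or more rows. The number in the cKO list only was 2 when peaks of both lists needed a −log10 q of 5 or more and 2 with lists of equal length. Genes with a gained intragenic peak were 14 when both lists had a −log10 q of 10 or more and 12 with lists of equal length. Gained intragenic peaks were 45 when that limit was 5, 25 when it was 10, 63 with 3 or more rows and 17 with lists of equal length. Lost peaks were 2, 0, 1 and 17 in the same 4 settings. The widest *Dnah8* peak of the WT list was 16009 bp as its longest single row.

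Further settings were chosen after seeing the data. With peaks at a −log10 q of at least 5 set against the whole other list, 16 genes had 29 gained intragenic peaks, and 2 peaks were lost. With peaks on 3 or more rows set against the whole other list, there were 47 gained intragenic peaks and 0 lost peaks. Without *Dnah8*, *Dnah14* and *Dnah17* there were 68 gained intragenic peaks.

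No library was left out and no spread is given, because each genotype is 1 list. No paired analysis was possible because the lists hold no value per library. The strongest promoter peaks of the 7 genes open in the cKO list only had folds of 2.78 to 4.58, and the lowest folds of any peak were 2.63 (WT) and 2.45 (cKO), which are the limits of these lists.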
